A study of Homo sapiens with 6 samples.

Results

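The genes described here are 9 members of the urokinase system and the serpin family: PLAU, PLAUR, PLAT, SERPINE2, SERPINB2, SERPINB6, SERPINB8, SERPINB9 and SERPINH1. They were picked by symbol out of 58735 annotated genes, with their difference between the groups already known, so that difference is given as a description, without a test. They were measured by RNA sequencing in MUM2B cells, a human melanoma line by its labels. One group stably overexpressed LACTB and the other stably carried an empty vector (EV), with 3 libraries in each. LACTB is a mitochondrial serine beta-lactamase-like protein. Both groups grew in RPMI medium with serum, and the labels say neither whether a line was 1 clone nor whether replicates were separate cultures, so the spread between libraries may be technical. LACTB itself stood at 168.2 ± 6.28 FPKM in LACTB cells and 3.97 ± 0.675 FPKM in EV cells (SD, n = 3 each), and all 6 libraries matched their labels.

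Urokinase, the product of PLAU, is a secreted serine protease that binds a receptor on the cell surface, encoded by PLAUR, and there converts the zymogen plasminogen into plasmin. Plasmin digests fibrin and matrix proteins and activates further proteases, and tumour cells are known to use the system when they invade. Serpins inhibit serine proteases by a suicide mechanism: the protease cleaves an exposed loop of the serpin and stays trapped on it. Some members of the fold have other work, such as the collagen chaperone encoded by SERPINH1.

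Values are FPKM, that is, read fragments divided by the exon length of a gene and by library size. The length counts all annotated exons of a gene, from 2748 bases for SERPINB2 to 13201 for SERPINB6 among the members. Levels, ranks, ratios and sums across genes thus also depend on this annotated length, whereas the fold of a gene between groups does not. Depth ranged from 16978799 to 18395631 reads in genes per library. EV replicate 3 stood apart from its group, with a chi-square per degree of freedom of 14.5 and 15.2 against EV replicates 1 and 2, which gave 3.45 between them, and with 3.61% mitochondrial reads, against 4.65% to 5.62% in the other 5 libraries. Without it the log2 difference, LACTB minus EV, was -0.98 for PLAU, 0.35 for PLAUR, 1.22 for SERPINE2, 2.37 for SERPINB2 and 0.70 for SERPINH1. All 10 melanocyte markers had a mean under 1 FPKM, as did all 8 leukocyte and all 7 fibroblast markers, and 3 of 6 epithelial markers (EPCAM, CDH1 and KRT19). Of the other epithelial markers, KRT8 and KRT18 stood at 163.7 and 143.8 FPKM in LACTB cells and 184.9 and 161.8 FPKM in EV cells, and CLDN4 at 7.15 FPKM in LACTB cells and 4.82 FPKM in EV cells. The summed level of 7 endothelial markers was 20.7 to 22.8 FPKM in LACTB libraries and 54.1 to 58.7 FPKM in EV libraries, and its part in the results below was not tested. The difference lay in CDH5, at 13.96 FPKM in LACTB cells and 49.8 FPKM in EV cells, while EGFL7, the other marker above 1 FPKM, stood at 7.38 FPKM in LACTB cells and 6.47 FPKM in EV cells. PECAM1 stood at 0.147 FPKM in LACTB cells and 0.393 FPKM in EV cells, and KDR at 0.289 FPKM in LACTB cells and 0.306 FPKM in EV cells. The endothelial markers VWF, TEK and CLDN5 lay under 0.1 FPKM in both groups, and no marker of that list was at 0 in all libraries. In bulk RNA, fewer cells of a type and less RNA per cell cannot be told apart.

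**Figure D1:**
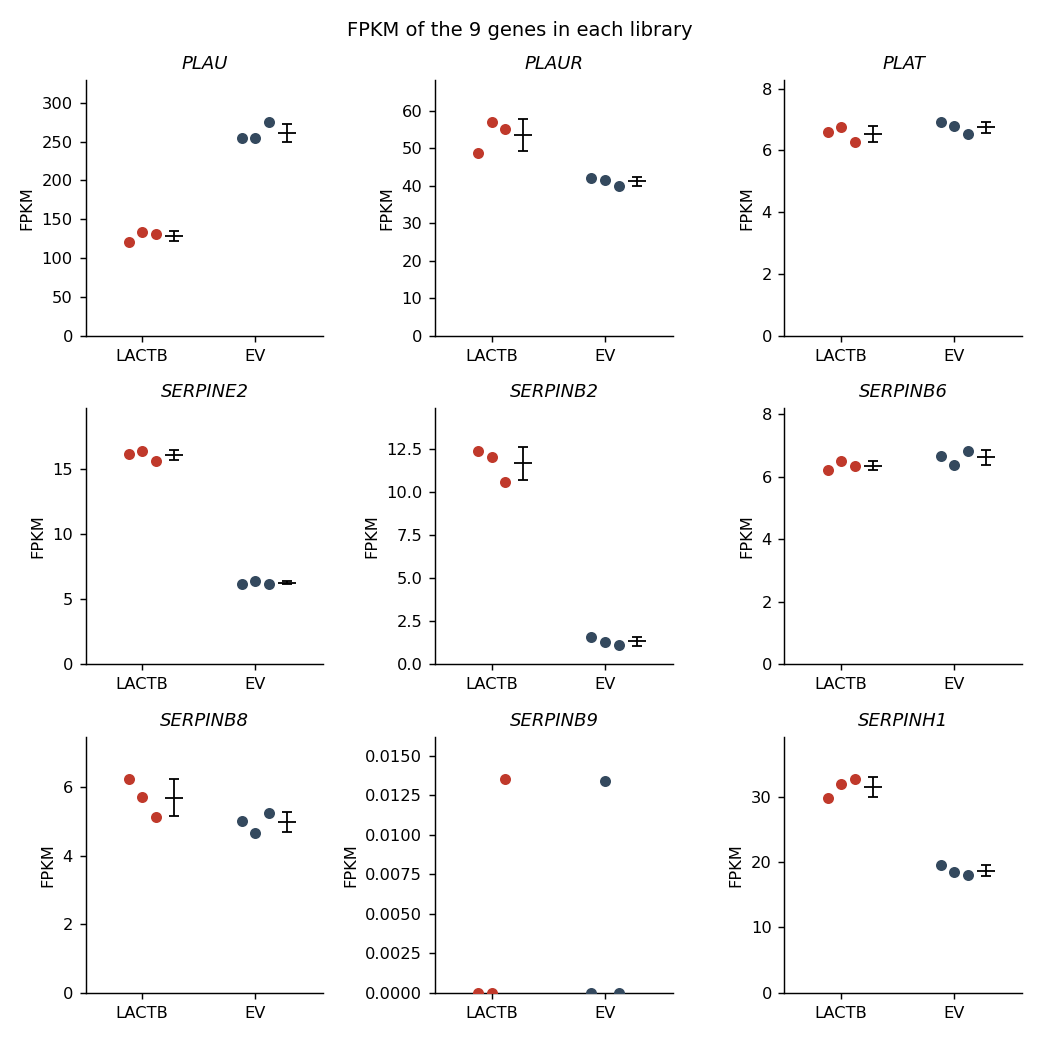
FPKM of the 9 members (vertical axes, linear from 0, a scale for each panel) in the LACTB and EV libraries. Points are libraries, and bars are the mean ± SD, omitted for SERPINB9, whose 2 raised points are 1 read each. PLAU lies lower in LACTB cells, and PLAUR, SERPINE2, SERPINB2 and SERPINH1 lie higher with no overlap.

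A limma fit over all genes, made on log2(FPKM + 1) values with p adjusted by Benjamini-Hochberg, called 14.8% of 11875 tested genes as risen and 17.2% as fallen in LACTB cells (adjusted p under 0.05), that is 1758 and 2038 genes. The balance turned with limma voom on recovered reads, which called 2346 as risen and 1952 as fallen, and on TPM, with 1625 and 1367. Of the 9 members, 8 passed the filter of a mean of at least 1 FPKM, each with such a mean in both groups. The fit on log2(FPKM + 1) called 4 as higher and 1 as lower, and voom called 5 as higher and 1 as lower. All LACTB libraries lay above all EV libraries in 4 members, against 22.3% of tested genes, and below them in 1 member, against 25.1%. Nothing is read from these counts, since the members were chosen on the same values. They differed in size as well as direction, from 8.70-fold higher for SERPINB2 to 2.03-fold lower for PLAU.

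PLAU (ENSG00000122861; GRCh38 chromosome 10, 73909177 to 73917497, plus strand) was the most abundant member and the one that was lower. Its level was 121, 133 and 131 FPKM in LACTB replicates 1 to 3, against 254, 254 and 275 FPKM in EV replicates 1 to 3. The groups were far apart relative to their spread, at 128.6 ± 6.70 FPKM in LACTB cells and 261.1 ± 11.8 FPKM in EV cells (SD, n = 3 each), a log2 difference of -1.02 (SE 0.056). By level it ranked 226th among 19951 protein-coding genes in LACTB cells and 99th in EV cells. The values rest on 6460 to 6966 reads per LACTB library and 13200 to 14604 per EV library, so counting error is small beside the spread. C10orf55 overlaps PLAU on the opposite strand over 7529 bases, at 0.637 ± 0.141 FPKM in LACTB cells and 1.30 ± 0.454 FPKM in EV cells, and without strand in the counting some reads of this pair cannot be assigned with certainty.

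PLAUR (ENSG00000011422; chromosome 19, 43646095 to 43670547, minus strand), the receptor tethered to the membrane by a glycolipid anchor, lay on the other side. It stood at 48.7, 56.9 and 55.2 FPKM in the LACTB libraries and at 42.1, 41.5 and 40.0 FPKM in the EV libraries. Every LACTB library lay above every EV library, with LACTB replicate 1 closest to them. The means were 53.6 ± 4.36 FPKM in LACTB cells and 41.2 ± 1.12 FPKM in EV cells (SD, n = 3 each), 1.30-fold higher.

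PLAT (ENSG00000104368; chromosome 8, 42175233 to 42207724, minus strand) encodes tissue plasminogen activator, the second activator of plasminogen, which works mainly when bound to fibrin. Its levels were 6.61, 6.75 and 6.26 FPKM in LACTB libraries and 6.91, 6.79 and 6.55 FPKM in EV libraries. These ranges overlap, and the log2 difference of -0.04 (SE 0.047) was smaller than its error. The ratio of PLAU FPKM to PLAT FPKM was 19.7 ± 1.34 in LACTB cells and 38.7 ± 2.80 in EV cells. It is no count of transcripts, since it depends on the annotated exon lengths, 2950 bases for PLAU and 6618 for PLAT.

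Because PLAU and PLAUR lay on opposite sides, their ratio within a library differed more than either gene. LACTB libraries held 2.34 to 2.48 FPKM of PLAU for each FPKM of PLAUR, and EV libraries held 6.04 to 6.87. This ratio and those that follow are a second view of the same values and no separate evidence.

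SERPINE2 (ENSG00000135919; chromosome 2, 223975112 to 224039319, minus strand) encodes protease nexin 1, a secreted inhibitor of thrombin, urokinase and plasmin. It stood at 16.2, 16.4 and 15.6 FPKM in LACTB libraries, against 6.21, 6.39 and 6.20 FPKM in EV libraries. The replicates were tight, with a coefficient of variation of 2.37% in LACTB cells and 1.73% in EV cells, and the means of 16.1 ± 0.381 FPKM in LACTB cells and 6.27 ± 0.109 FPKM in EV cells (SD, n = 3 each) differed 2.56-fold. By level it ranked 2724th among protein-coding genes in LACTB cells and 5810th in EV cells.

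SERPINB2 (ENSG00000197632; chromosome 18, 63871692 to 63903890, plus strand) encodes plasminogen activator inhibitor type 2, which inhibits urokinase and, like the other clade B serpins, is made without a classical signal peptide and stays largely inside the cell. It reached 12.4, 12.1 and 10.6 FPKM in LACTB libraries and 1.61, 1.30 and 1.11 FPKM in EV libraries. The 2 groups lay wholly apart, and the EV values were the more variable in proportion, at 18.9% against 8.17% in LACTB cells. They rest on 55 to 78 reads per EV library and 524 to 617 per LACTB library. The means of 11.7 ± 0.954 FPKM in LACTB cells and 1.34 ± 0.254 FPKM in EV cells (SD, n = 3 each) differed 8.70-fold. The log2 difference of 2.44 (SE 0.093) on the log2(FPKM + 1) scale understates this, because the EV level is near the pseudocount, and was 3.16 with limma voom on recovered reads. SERPINB10 shares 6717 bases of the locus on the same strand. It was almost without reads, with 4 over the 3 LACTB libraries (0.0277 ± 0.0117 FPKM) and 0 in every EV library, so no difference is read from it.

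The promoter window of SERPINB2 is shown because this gene had the largest difference of the 9, those of PLAUR and SERPINB8 because they share a motif with it, and that of PLAU because it was the member that was lower. They are the 250 bases before the start site in RefSeq (GRCh38.p14), 5′ to 3′ on the strand of the gene, with capitals for matches to the motifs named below.
SERPINB2, chr18:63887455-63887704, plus strand: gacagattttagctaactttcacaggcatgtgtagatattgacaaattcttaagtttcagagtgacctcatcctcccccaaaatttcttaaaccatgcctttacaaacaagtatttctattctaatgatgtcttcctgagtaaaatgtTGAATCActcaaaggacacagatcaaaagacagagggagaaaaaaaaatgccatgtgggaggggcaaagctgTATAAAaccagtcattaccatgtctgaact
PLAUR, chr19:43670170-43670419, minus strand: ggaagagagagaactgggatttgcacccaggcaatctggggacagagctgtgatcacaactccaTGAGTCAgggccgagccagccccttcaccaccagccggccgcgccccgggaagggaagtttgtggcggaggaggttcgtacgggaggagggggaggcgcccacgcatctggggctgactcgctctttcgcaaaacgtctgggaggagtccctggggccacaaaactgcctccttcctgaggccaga
SERPINB8, chr18:63969831-63970080, plus strand: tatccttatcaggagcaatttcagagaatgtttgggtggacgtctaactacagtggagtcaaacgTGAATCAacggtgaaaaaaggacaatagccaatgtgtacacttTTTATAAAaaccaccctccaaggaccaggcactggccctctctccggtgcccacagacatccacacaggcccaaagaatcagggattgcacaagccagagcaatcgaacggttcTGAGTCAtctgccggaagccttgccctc
PLAU, chr10:73910882-73911131, plus strand: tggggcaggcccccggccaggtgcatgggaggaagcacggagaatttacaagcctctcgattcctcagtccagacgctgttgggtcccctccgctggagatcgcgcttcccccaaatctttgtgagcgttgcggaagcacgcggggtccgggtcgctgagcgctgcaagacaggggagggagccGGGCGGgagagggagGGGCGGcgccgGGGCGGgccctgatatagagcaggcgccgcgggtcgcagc

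RefSeq windows matched 8 of the 9 members by symbol (not PLAT), 14 windows in all, since some genes have several start sites. The AP-1 motif TGANTCA, searched like every motif on both strands, occurred in windows of 3 members, at -102 to -96 from the start in SERPINB2, at -186 to -180 in PLAUR, and at both -185 to -179 and -28 to -22 in SERPINB8. It is found in 6.57% of all 35116 windows of this length. SERPINB2 also holds the TATA box letters TATAAA at -30 to -25, present in 10.7% of all windows, and SERPINB9 has them at the same place. SERPINB8 has them at -140 to -135 and, on the other strand, at -142 to -137. PLAU shows 3 GC boxes (GGGCGG, 42.6% of windows) within 66 bases of this start. Windows of 5 members hold GC boxes, those of PLAU, SERPINE2, SERPINB6, SERPINB9 and SERPINH1. The other start site of PLAU holds a single antioxidant response element (TGACNNNGC, 10.9%), which can share letters with AP-1. SERPINE2 held a pair of matches of that element at 1 start site and SERPINB9 had 1. The TEAD motif GGAATG, the CRE TGACGTCA and the ATF4 motif TGATGCAA, held by 11.9%, 1.65% and 0.772% of windows, matched no window of the 8 members. These are matches of letters only, and nothing about binding follows from a match or from its absence.

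Messages of this system are known for short lives set by AU-rich elements, pentamers of ATTTA, in the 3′ untranslated region. Of 18443 such regions in GENCODE 29, 1 transcript per gene, 66.0% hold at least 1 ATTTA, and 7.71% hold the nonamer TTATTTATT. Among the 9 members, SERPINB2 and PLAUR hold that nonamer, and these are shown in capitals with their flanks (GRCh38).
SERPINB2, chr18:63903572-63903600, plus strand: ttttactttgTTATTTATTattttatata
PLAUR, chr19:43648601-43648629, minus strand: aatattcataTTATTTATTttatacttac
SERPINB2 carried 4 copies of ATTTA in 574 bases, 6.97 per kb, a density reached by 4.22% of all regions. PLAU carried 2 in 932 bases, PLAUR 1 in 310, SERPINB8 8 in 2096, and SERPINB6 none in 135. The highest densities after SERPINB2 were those of SERPINB8, at 3.82 per kb, and PLAUR, at 3.23 per kb. RNA stability was not measured.

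SERPINB6 (ENSG00000124570; chromosome 6, 2948159 to 2972165, minus strand) inhibits cathepsin G and thrombin in vitro. It stood at 6.22, 6.52 and 6.34 FPKM in LACTB libraries, against 6.67, 6.37 and 6.83 FPKM in EV libraries, ranges that overlap (log2 difference -0.05, SE 0.046). SERPINB8 (ENSG00000166401; chromosome 18, 63969925 to 64019779, plus strand), an inhibitor of the proprotein convertase furin, lay at 6.23, 5.72 and 5.14 FPKM in LACTB libraries and 5.01, 4.68 and 5.26 FPKM in EV libraries. LACTB replicate 3 lay within the EV range, so the groups overlap, with a mean 1.14-fold higher in LACTB cells (log2 difference 0.16, SE 0.072). SERPINB9 (ENSG00000170542; chromosome 6, 2887266 to 2903280, minus strand), the inhibitor of granzyme B, was almost without reads: 1 read over the 3 LACTB libraries and 1 over the 3 EV libraries. No fold is given for it.

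The share of SERPINB2 among these 4 clade B serpins was thus 48.0% to 49.9% of their summed FPKM in LACTB libraries and 8.41% to 12.1% in EV libraries. It is no share of all clade B, since SERPINB1, at 20.2 FPKM in LACTB cells and 19.7 FPKM in EV cells, is not among the 4. This share also depends on the annotated exon lengths, 2748 bases for SERPINB2 and 13201 for SERPINB6. In reads not divided by length, SERPINB6 had 4474 and SERPINB2 1711 over the LACTB libraries, and 4699 and 198 over the EV libraries. The sum itself was 23.7 ± 1.46 FPKM in LACTB cells and 13.0 ± 0.509 FPKM in EV cells (SD, n = 3 each).

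SERPINH1 (ENSG00000149257; chromosome 11, 75562056 to 75572783, plus strand) encodes HSP47, a resident of the endoplasmic reticulum that binds procollagen and inhibits no protease. Its level was 29.8, 31.97 and 32.6 FPKM in LACTB libraries, against 19.6, 18.4 and 18.04 FPKM in EV libraries. No LACTB library came near the EV range, and the means of 31.4 ± 1.502 FPKM in LACTB cells and 18.7 ± 0.815 FPKM in EV cells (SD, n = 3 each) differed 1.68-fold. HSP47 is known as a target of heat shock factor, and its window is shown for the heat shock element GAANNTTC at -71 to -64 (in 5.78% of all windows). The other capitals, at -239 to -230, match NF-kB (in 5.21%).
SERPINH1, chr11:75562003-75562252, plus strand: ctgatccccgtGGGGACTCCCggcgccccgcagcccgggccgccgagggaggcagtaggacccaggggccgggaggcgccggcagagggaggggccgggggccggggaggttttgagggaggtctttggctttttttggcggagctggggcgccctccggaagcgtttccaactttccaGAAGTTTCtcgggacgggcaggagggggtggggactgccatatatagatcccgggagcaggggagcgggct

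**Figure D2:**
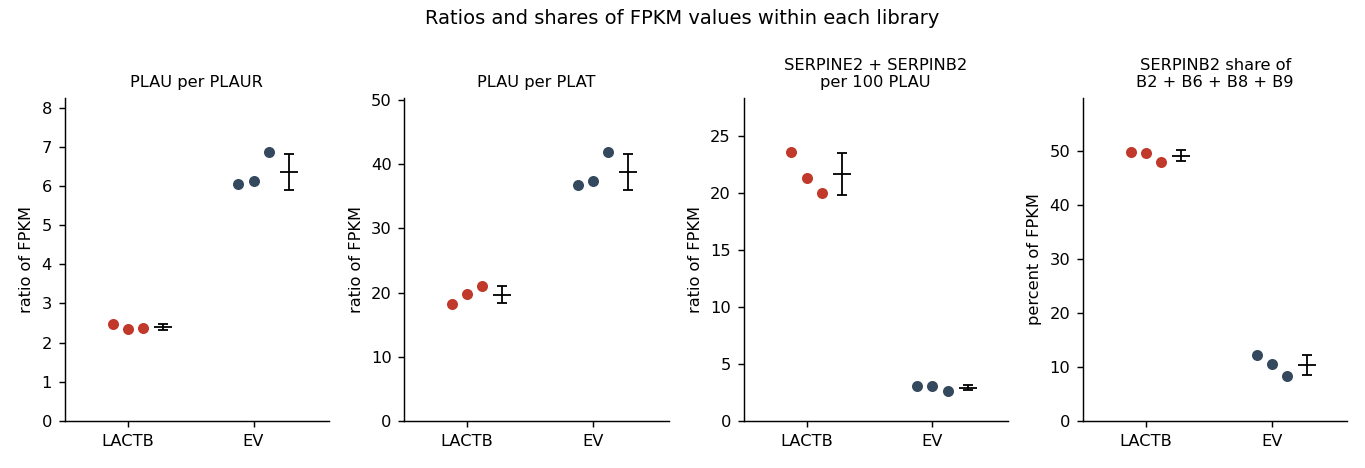
Ratios (first 3 panels) and percent shares (last panel) of FPKM values within each LACTB and EV library. Points are libraries and bars the mean ± SD. The ratios of PLAU to PLAUR and to PLAT lie lower in LACTB cells, while SERPINE2 plus SERPINB2 per 100 PLAU lies higher. The share of SERPINB2 in the sum of SERPINB2, SERPINB6, SERPINB8 and SERPINB9 also lies higher.

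SERPINE2 and SERPINB2, the 2 members that inhibit urokinase, together stood at 28.6, 28.4 and 26.2 FPKM in LACTB libraries and 7.82, 7.69 and 7.31 FPKM in EV libraries. For each 100 FPKM of PLAU this made 19.99 to 23.6 FPKM in LACTB libraries and 2.66 to 3.08 FPKM in EV libraries. SERPINB2 was the smaller part of the sum in every library, at 40.4% to 43.4% in LACTB libraries and 15.2% to 20.6% in EV libraries. The sum covers these members alone and is a second view of the values that chose them, and the amounts and activities of the proteins were not measured.

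Most other serpins were not expressed at a level that could be tested. Of 29 further genes of the serpin family examined, 25 had a mean under 1 FPKM and 10 were listed at 0 in all libraries. SERPINB1, an inhibitor of neutrophil elastase, stood at 20.2 ± 0.907 FPKM in LACTB cells and 19.7 ± 0.623 FPKM in EV cells (SD, n = 3 each; log2 difference 0.04, SE 0.047; limma, adjusted p = 0.613). SERPINI1, SERPINB7 and SERPINA1 had means of 1.86 to 2.54 FPKM in LACTB cells and 1.58 to 2.85 FPKM in EV cells. Of these 4 tested genes, limma called 0 as risen and 0 as fallen, 0 had an unadjusted p under 0.05, and voom called 0. Their median log2 difference was 0.02, beside -0.01 over all tested genes.

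Plasminogen and the partners around the receptor were described from a list that, like those that follow, was chosen with earlier results of these data known, so no pattern is read from its counts. The zymogen gene PLG was listed at 0 in every library, and SERPINF2, the plasmin inhibitor alpha-2-antiplasmin, at 0.105 ± 0.0399 FPKM in LACTB cells and 0.126 ± 0.0580 FPKM in EV cells. Of 39 listed genes 21 were tested, of which 2 rose and 10 fell, beside 14.8% and 17.2% of all tested genes, with a median log2 difference of -0.11. Without a filter on low values 6 fell.

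Among receptors that hold plasminogen at the surface, S100A10 was 124.8 ± 7.88 FPKM in LACTB cells and 147.2 ± 10.0 FPKM in EV cells (SD, n = 3 each; limma, adjusted p = 0.0329). That call was lost without LACTB replicate 1 (adjusted p = 0.0940), LACTB replicate 3 (0.102), EV replicate 1 (0.0879) or EV replicate 2 (0.0610), without a filter on low values (0.106) and with a replicate block (0.0784), over alternatives from 0.00884 to 0.106. ENO1, the glycolytic enzyme enolase 1 that also binds plasminogen at the surface, fell to 644.9 ± 7.77 FPKM in LACTB cells, against 786.9 ± 22.3 FPKM in EV cells (limma, adjusted p = 0.00457). ANXA2, the partner of S100A10, stood at 347.8 ± 5.72 FPKM in LACTB cells and 374.5 ± 11.4 FPKM in EV cells (limma, adjusted p = 0.114), and PLGRKT at 15.8 ± 0.0531 FPKM in LACTB cells and 15.4 ± 1.87 FPKM in EV cells (limma, adjusted p = 0.695).

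Endocytic receptors of the list differed from each other, among them VLDLR and LRP1, which clear urokinase bound to its inhibitor. VLDLR rose to 2.81 ± 0.0915 FPKM in LACTB cells, against 1.42 ± 0.186 FPKM in EV cells, 1.98-fold (log2 difference 0.66, SE 0.076; limma, adjusted p = 0.00104). LRP1 stood at 4.45 ± 0.201 FPKM in LACTB cells and 4.39 ± 0.599 FPKM in EV cells (limma, adjusted p = 0.884). IGF2R, the mannose-6-phosphate receptor, rose to 21.2 ± 0.432 FPKM in LACTB cells, against 17.6 ± 0.408 FPKM in EV cells (limma, adjusted p = 0.00318).

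Of the integrin subunits in the list 5 were tested, of which ITGB5, ITGAV and ITGB1 fell, while ITGA3 and ITGA5 passed no threshold (limma, adjusted p = 0.412 and 0.564). ITGB5 fell to 14.5 ± 0.902 FPKM in LACTB cells, against 25.3 ± 0.727 FPKM in EV cells (SD, n = 3 each; log2 difference -0.76, SE 0.053; limma, adjusted p = 0.000109), and ITGAV, which pairs with it in a vitronectin receptor, fell to 12.6 ± 0.181 FPKM in LACTB cells, against 18.1 ± 1.19 FPKM in EV cells (limma, adjusted p = 0.000807). CAV1, the caveolar coat protein, and THBS1, thrombospondin 1, were 1.41-fold and 1.35-fold lower in LACTB cells (limma, adjusted p = 0.000214 and 0.00103). The remaining 4 genes that fell had log2 differences of -0.56 (MRC2) to -0.21 (ITGB1; limma, adjusted p = 0.0185).

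A list of proteases and thrombin receptors was drawn for the member serpins and their relatives, so not each protease is a known target of a member. Its genes went both ways. Of 34 proteases and thrombin receptors 10 were tested, of which 2 rose and 5 fell, beside 14.8% and 17.2% of all tested genes, with a median log2 difference of -0.24. GZMB, the target of SERPINB9, and the neutrophil proteases ELANE and PRTN3 were listed at 0 in all libraries. FURIN, the target of SERPINB8, fell to 23.1 ± 1.91 FPKM in LACTB cells, against 30.0 ± 2.12 FPKM in EV cells (SD, n = 3 each; limma, adjusted p = 0.00946), and F2R, the thrombin receptor PAR1, fell to 5.65 ± 0.235 FPKM in LACTB cells, against 7.44 ± 0.229 FPKM in EV cells (limma, adjusted p = 0.00226). The serine proteases PRSS12 and PRSS23 were 1.98-fold and 1.53-fold lower in LACTB cells. CTSL, the lysosomal cysteine protease cathepsin L, rose to 53.6 ± 1.75 FPKM in LACTB cells, against 33.2 ± 2.03 FPKM in EV cells (limma, adjusted p = 0.000202). PRSS3, a trypsinogen gene, was 24.0 ± 1.48 FPKM in LACTB cells and 20.2 ± 1.89 FPKM in EV cells, with overlap (limma, adjusted p = 0.0446). It lost its call without LACTB replicate 2 (adjusted p = 0.136), LACTB replicate 3 (0.128), EV replicate 2 (0.123) or EV replicate 3 (0.108), without a filter on low values (0.131) and with a replicate block (0.109), over alternatives from 0.00771 to 0.136. PRSS3 has close copies in the trypsinogen family, among which reads may be shared.

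Procollagen enzymes, the neighbours of HSP47 in the endoplasmic reticulum, went both ways. Of 26 tested genes 6 rose and 5 fell, beside the same shares of all tested genes, with a median log2 difference of -0.02 that turned to 0.01 with quantile normalization and with voom and to 0.0027 on TPM, while SERPINH1 differed by 0.72 (SE 0.051). P3H2, a prolyl 3-hydroxylase, fell to 3.28 ± 0.125 FPKM in LACTB cells, against 7.61 ± 0.170 FPKM in EV cells (SD, n = 3 each; log2 difference -1.01, SE 0.047; limma, adjusted p = 1.75e-05). PDIA6 and ERO1A of disulfide formation and P3H3 were 1.31-fold, 1.26-fold and 1.245-fold lower in LACTB cells. With low genes kept in, P3H3 lost its call (limma, adjusted p = 0.0592), over alternatives from 0.00509 to 0.0592. SEC23A, a coat protein of vesicles that carry procollagen, rose 1.29-fold, the prolyl 4-hydroxylase subunit P4HA2 1.30-fold, TMEM38B 1.18-fold and the lysyl hydroxylase PLOD3 1.253-fold. PLOD3 lost its call without LACTB replicate 2 (limma, adjusted p = 0.0685) or LACTB replicate 3 (0.0607), without a filter on low values (0.0639) and with a replicate block (0.0516), over alternatives from 0.000915 to 0.0685, and without either of these libraries 3 genes of the list rose.

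**Figure D3:**
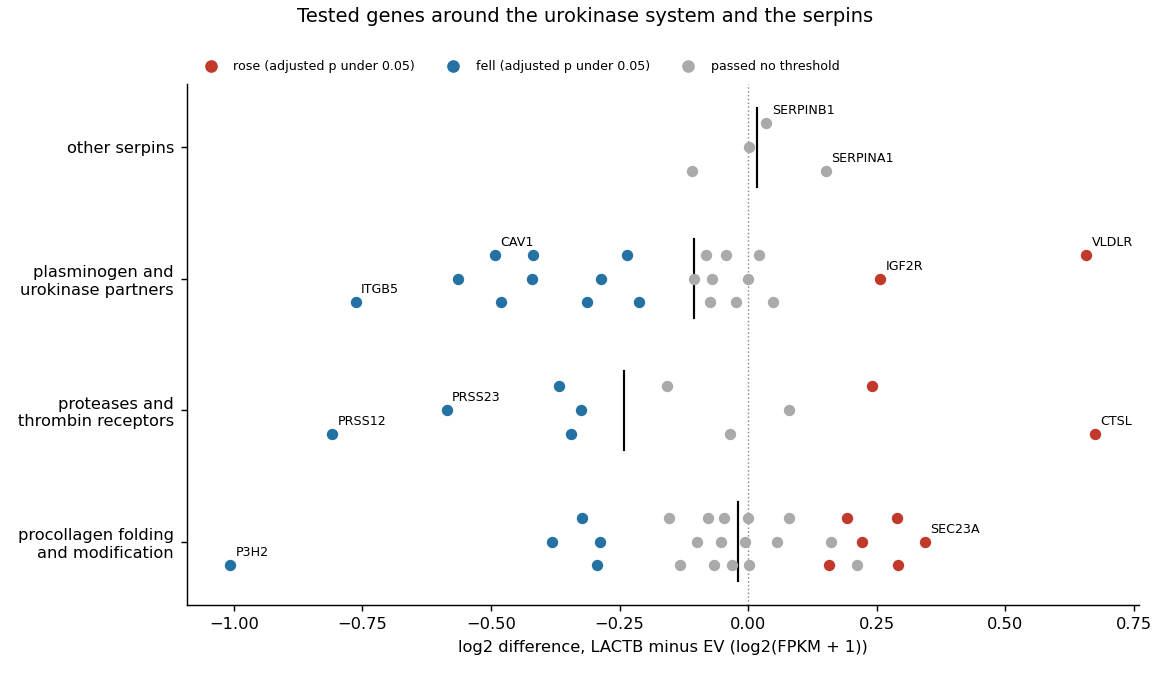
Log2 difference, LACTB minus EV, of log2(FPKM + 1) for each tested gene of 4 lists around the members (horizontal axis; rows are lists, and vertical shifts within a row only separate points). Colours give the call, and black lines are list medians, -0.11 for plasminogen and urokinase partners and -0.24 for proteases and thrombin receptors.

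Clade B serpins sit in 2 clusters, on chromosomes 6 and 18, so the genes beside the members were examined next. Within 500 kb of SERPINB6, SERPINB9, SERPINB2 or SERPINB8 lie 49 other annotated genes, of which 7 were tested. Of these 1 rose and 0 fell, beside 14.8% and 17.2% of all tested genes. NQO2, a quinone reductase whose start lies 15.8 kb from that of SERPINB6, rose to 5.25 ± 0.145 FPKM in LACTB cells, against 4.01 ± 0.256 FPKM in EV cells (SD, n = 3 each; limma, adjusted p = 0.00552). TUBB2A stood at 7.83 and 6.39 FPKM in LACTB and EV cells and passed no threshold (limma, adjusted p = 0.0837). The other 5 lay between -0.05 (RIPK1) and 0.04 (SERPINB1) in log2 difference. Without LACTB replicate 1 or without EV replicate 1, 2 neighbours rose. On chromosome 18, SERPINB7 and VPS4B, the tested neighbours of SERPINB2, had log2 differences of 0.00092 and 0.01. SERPINB5 of the same cluster lay under the filter and was not tested. It stood at 0.838 FPKM in LACTB cells and 0.478 FPKM in EV cells, on 176 and 101 reads, without overlap between the groups. Beside SERPINB2 itself, 119 kb away, SERPINB7 had 2.18 FPKM in LACTB cells and 2.19 FPKM in EV cells.

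**Figure D4:**
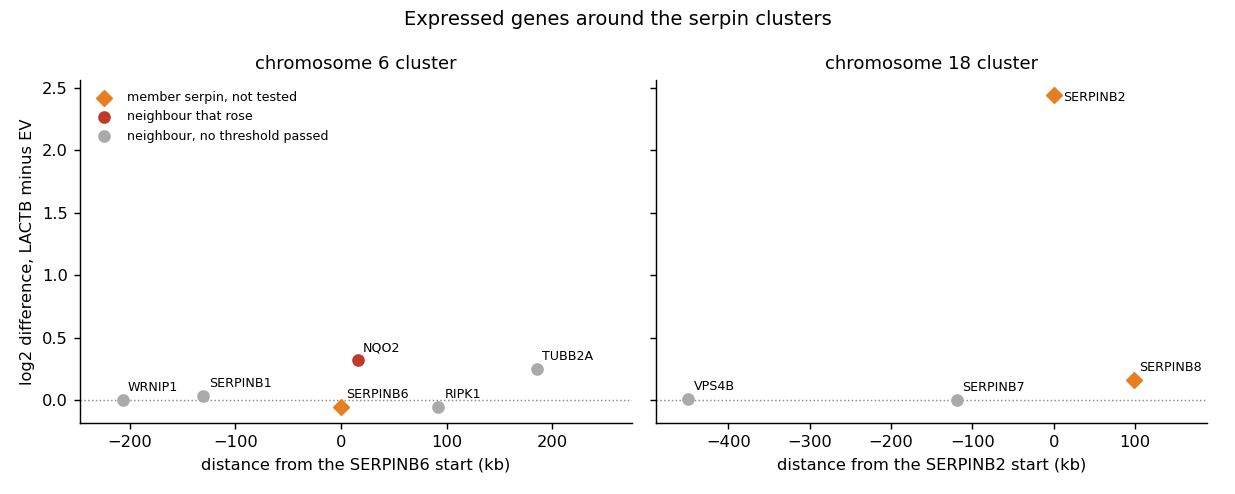
Log2 difference, LACTB minus EV (vertical axis), of the expressed genes around the serpin clusters, by distance in kb from the start of SERPINB6 or SERPINB2 (horizontal axes). Diamonds are members, given without a test, and circles are neighbours, of which NQO2 rose. SERPINB2 stands at 2.44, while SERPINB7 and VPS4B lie near 0.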

How the data were processed

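For each library the authors deposited FPKM values of 58735 genes, whose Ensembl IDs all matched GENCODE 29 (GRCh38). The build GRCh38 (hg38) and the tools featureCounts 1.5.0-p3, DESeq2 1.16.1 and HISAT2 2.0.5 are listed by the submitters' processing notes, without roles. How reads were trimmed, placed when they matched several sites, or counted by strand is not given in the sources used here, nor is the annotation. FPKM times exon length came in whole steps of 1 read for 100% of values above 0 (tolerance 0.1 reads), which gave read numbers and depth.

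Limma 3.58.1 in R 4.3.3 (lmFit, eBayes with trend) was fitted to log2(FPKM + 1) and checked on simulated data. A gene rose or fell at a Benjamini-Hochberg adjusted p under 0.05 over the 11875 genes averaging 1 FPKM or more, and 5029 genes had an unadjusted p under 0.05. Folds are ratios of mean FPKM. Members and lists were chosen with earlier results of these data known. Named besides the members were SERPINB1, SERPINF2, PLG, LRP1, ANXA2, S100A10 and PLGRKT by role, and per list up to 4 risen and 4 fallen genes with the smallest p. SERPINA1, SERPINI1, SERPINB5, SERPINB7, ENO1, ITGA3, ITGA5, GZMB, ELANE, PRTN3, MRC2, ITGB1, TUBB2A, RIPK1, VPS4B and overlapping genes were named after their values were seen. Chi-square per degree of freedom between replicates was 2.13 to 15.2, a larger spread than counting error alone gives. Each library counted as 1 sample, though the labels do not say whether replicates were separate cultures. Alternatives were a pseudocount of 0.1, no filter, at least 5 FPKM, quantile normalization, voom on recovered reads, a replicate block and each library left out; TPM was added after seeing the data. A gene that the rule names is not reported here, and list counts leave it out.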

Additional observations from a re-analysis of the deposited data

How the results depend on the processing

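Of 13 alternatives, 10 could give another log2 difference for a member, since the filters and the replicate block leave it as it is. That of SERPINB2 ran from 2.37 to 3.16 and that of SERPINE2 from 1.22 to 1.39, with the high ends from voom, while that of PLAU ran from -1.04 to -0.97. These ranges describe values that chose the members.

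Over all genes, 1155 rose at a mean of at least 5 FPKM, where 6980 genes were tested. Leaving out single libraries gave 1132 to 1495 genes that rose, the lowest without LACTB replicate 2, and 1392 to 1810 that fell. At a mean of at least 5 FPKM, 1 partner of the plasminogen system rose, 3 proteases or thrombin receptors fell and 0 cluster neighbours rose. Without a filter, 6 partners of the plasminogen system fell, and 3 procollagen genes rose and 3 fell. With voom, 2 cluster neighbours rose. Leaving out single libraries gave 1 to 2 proteases, 3 to 6 procollagen genes and 1 to 2 neighbours that rose. Fewer or more genes are tested under the filters; otherwise the cause was not tested.

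The replicate block gave 1155 genes that rose and 1324 that fell, with 1 protease and 3 procollagen genes that rose. Deviations of same-numbered libraries correlated at -0.13, 0.02 and -0.04 over genes, and those of differently numbered libraries at -0.06 to 0.11. No deviation shared by number was seen, but this cannot tell whether the samples were prepared in pairs. SERPINB9 had too few reads for any value.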
